A study of Mus musculus with 2 samples.

Results

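The purinergic receptors and ectonucleotidases were taken as 8 genes, P2ry12, P2ry13, P2ry6, P2ry14, P2rx4, P2rx7, Entpd1 and Nt5e, found by symbol among the 31253 features of each count table. All 8 were present, and all 8 had UMIs in both libraries. The cells came from infarcted brain tissue of mice 3 days after transient middle cerebral artery occlusion (tMCAO), in which the artery is blocked and then reopened, a model of ischaemic stroke. The tissue was digested with collagenase and polyadenylated RNA was counted with BD Rhapsody, which tags each captured RNA with a unique molecular identifier (UMI). The control library is labelled flox, a group that the design text calls WT, and the other library is labelled Hilpda cKO, a conditional knockout of Hilpda, which encodes a lipid droplet protein. The labels do not say what drives the Cre, which exons and cell types carry the deletion, how old the mice were or how many were pooled in a library. Each group was 1 library, so group and library preparation cannot be told apart, nothing was tested, and every interval below is a 95% interval for counting error only.

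The flox library held 8593 barcodes and 67864602 UMIs and the cKO library 7382 barcodes and 70665440 UMIs. After filters and removal of doublets 8065 and 6984 cells were kept, with medians of 6997 and 8741 UMIs, and 53 and 52 of the kept barcodes were barcode sequences that the other library also held. Clustering used both libraries jointly and left out the 8 genes and their pathway list, and a cluster got an "X-like" name by a set list of markers. Of 15049 kept cells 14682 fell into 15 named classes, and 8 classes had at least 100 cells in each library. These were microglia-like (2149 flox and 1411 cKO cells), monocyte or macrophage-like (3642 and 3097, called macrophage-like below), border-associated macrophage-like (186 and 185), dendritic cell-like (268 and 247), neutrophil-like (202 and 299), endothelial cell-like (563 and 543), mural cell-like (107 and 111) and oligodendrocyte-like (351 and 359). Levels are given as CPM (counts per 1e+06), the UMIs of a gene relative to all UMIs of that class in 1 library, with flox before cKO. The 11 monocyte or macrophage markers summed to 7095 and 8168 CPM in macrophage-like cells and to 131 and 178 CPM in microglia-like cells. The microglia markers without Sparc summed to 14402 and 13271 CPM in microglia-like cells, but also to 2908 and 2633 CPM in macrophage-like cells. When cells were gated 1 by 1, 3474 microglia-like cells kept their name, while of the macrophage-like cells 1131 kept theirs, 715 were gated as border-associated macrophage-like, 481 as microglia-like and 4392 as no class. Of the dendritic cell-like cells 99 kept their name, 76 were gated as monocyte or macrophage-like and 326 as no class. In that class the monocyte or macrophage markers summed to 3305 and 2975 CPM, above its own 9 markers at 2416 and 1981 CPM. The deleted gene itself went in different directions between classes. Hilpda had 471 and 268 CPM in macrophage-like cells, 202 and 33.0 in neutrophil-like cells, but 101 and 224 for the microglia-like class. The counted 3′ tag may lie outside the deleted part, so these values do not check the genotype, and "cKO" below means the library labelled cKO.

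Purinergic signalling starts when ATP, ADP, UTP or UDP leave damaged or active cells. Nucleotides open the P2X channels or activate the G protein-coupled P2Y receptors, and surface enzymes break them down in steps to adenosine, which has receptors of its own. In the brain P2ry12 is a marker of resting microglia, whose processes grow toward ADP, while P2ry6 is known for UDP-triggered phagocytosis and P2rx7 for ATP-triggered release of interleukin-1β. Entpd1 (CD39) turns ATP and ADP into AMP, and Nt5e (CD73) turns AMP into adenosine.

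A single locus on chromosome 3 holds 3 of the receptors. P2ry12 (ENSMUSG00000036353, chr3:59216272-59262871), P2ry13 (ENSMUSG00000036362, chr3:59207892-59210882) and P2ry14 (ENSMUSG00000036381, chr3:59113855-59153618) lie in a row on the minus strand in GRCm38, 5389 bp and 54273 bp apart, and all 3 lie inside Med12l on the plus strand. In GENCODE vM21, 1 of 12 P2ry12 exons and no P2ry13 or P2ry14 exon overlaps a Med12l exon. No label says whether counting used strand, so UMIs in that exon cannot be assigned between P2ry12 and Med12l. Med12l itself had 11.3 and 9.98 CPM in microglia-like cells. In neutrophil-like cells it had 19 and 34 UMIs, beside 19 and 55 of P2ry12. P2rx7 (ENSMUSG00000029468, chr5:122643911-122691432) and P2rx4 (ENSMUSG00000029470, chr5:122707544-122729738) are neighbours on the plus strand, 16111 bp apart. P2ry6 (ENSMUSG00000048779) lies at chr7:100937630-100974649 on the minus strand, Entpd1 (ENSMUSG00000048120) at chr19:40612366-40741602 and Nt5e (ENSMUSG00000032420) at chr9:88327197-88372092, both on the plus strand.

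The promoters of the 3 neighbours on chromosome 3 are shown because the genes are neighbours whose levels peaked in different cell classes. Each runs 5′ to 3′ on the minus strand, from 250 bases before to 50 bases after the RefSeq start (GRCm38.p6), at chr3:59262936-59263235 for P2ry12, chr3:59210833-59211132 for P2ry13 and chr3:59153443-59153742 for the first of 4 starts of P2ry14. Capitals mark matches, on either strand, to GAGGAA, a core bound by the myeloid factor PU.1, or to ACGTG, the core of the hypoxia response element.
P2ry12: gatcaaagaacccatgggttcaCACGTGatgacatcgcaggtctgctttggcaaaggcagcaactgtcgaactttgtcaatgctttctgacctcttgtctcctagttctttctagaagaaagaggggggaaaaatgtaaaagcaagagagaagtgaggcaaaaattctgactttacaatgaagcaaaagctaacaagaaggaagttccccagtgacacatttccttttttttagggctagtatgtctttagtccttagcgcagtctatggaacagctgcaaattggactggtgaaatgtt
P2ry13: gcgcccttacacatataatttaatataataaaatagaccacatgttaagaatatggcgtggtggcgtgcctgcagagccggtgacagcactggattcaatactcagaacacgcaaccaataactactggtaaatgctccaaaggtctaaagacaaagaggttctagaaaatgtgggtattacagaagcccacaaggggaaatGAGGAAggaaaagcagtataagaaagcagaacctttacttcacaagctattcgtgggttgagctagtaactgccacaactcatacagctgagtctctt
P2ry14: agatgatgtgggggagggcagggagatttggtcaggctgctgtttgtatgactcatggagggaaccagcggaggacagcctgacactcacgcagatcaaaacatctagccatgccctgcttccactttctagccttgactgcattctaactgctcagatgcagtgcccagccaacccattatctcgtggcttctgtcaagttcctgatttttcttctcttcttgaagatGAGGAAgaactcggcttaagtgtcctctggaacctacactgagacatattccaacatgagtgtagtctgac
The P2ry12 window held ACGTG on both strands, overlapping in 1 palindrome, and no GAGGAA. The P2ry13 window and the P2ry14 window each held GAGGAA and no ACGTG. Of 32851 RefSeq promoter windows of this length 28.3% held GAGGAA and 19.6% held ACGTG, so such matches are common. None of the 12 windows of the 7 genes with an entry held the ETS-IRF composite motif, searched on both strands, which 2.72% of all windows held. The matches describe letters in these windows and not binding, and P2ry6 had no entry.

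P2ry12, the ADP receptor of microglia, was highest in microglia-like cells. Its level there was 618 CPM in flox (607 to 628) and 374 CPM in cKO (366 to 383), from 13739 and 7649 UMIs. Border-associated macrophage-like cells followed with 162 and 146 CPM, and macrophage-like cells had 66.1 and 56.4 CPM. The microglia-like levels thus stood above every other class in both libraries. Neutrophil-like cells had 78.2 and 129.8 CPM from 19 and 55 UMIs, dendritic cell-like cells 35.3 and 36.3, mural cell-like cells 8.22 and 67.0, endothelial cell-like cells 26.7 and 4.60 and oligodendrocyte-like cells 14.1 and 9.70. In this order the ranges of the 2 libraries overlapped for macrophage-like and mural, mural and dendritic, and endothelial and oligodendrocyte-like cells.

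At equal depth the share of cells with a P2ry12 UMI followed the level. With each cell thinned to 1000 UMIs it was 46.9% in flox (44.8% to 49.0%) and 32.6% in cKO (30.1% to 35.1%) of microglia-like cells, against 7.18% and 6.02% of macrophage-like cells. Oligodendrocyte-like cells, a class that should lack the receptor, had 1.42% and 1.68%. Before thinning 90.8% and 88.5% of microglia-like cells had a UMI, where the median cell had 9086 and 14420 UMIs, and 5.70% and 4.46% of oligodendrocyte-like cells, where it had 4510 and 4950.

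P2ry13, a related ADP receptor, was highest in neutrophil-like cells and then in microglia-like cells. Neutrophil-like cells had 296 CPM in flox (232 to 373) and 522 CPM in cKO (455 to 595), from 72 and 221 UMIs. Microglia-like cells had 240.1 and 180.1 CPM, border-associated macrophage-like cells 130.3 and 115.9 and macrophage-like cells 60.7 and 46.2. The ranges of the 2 libraries did not overlap among these 4 classes, but in flox the counting interval of neutrophil-like cells held the microglia-like level. Each of the other 4 classes had at most 19.3 CPM. Thinned to 1000 UMIs, 26.9% and 32.5% of neutrophil-like cells and 26.2% and 18.7% of microglia-like cells had a P2ry13 UMI, against 1.42% and 0.671% of oligodendrocyte-like cells. The neutrophil-like cells were shallow, with medians of 1059 and 1300 UMIs, and 83 flox and 65 cKO cells were left out of the thinned share. With thinning to 2000 UMIs, and without thinning, microglia-like cells had the highest share.

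Microglia markers beside the neutrophil-like values were low but not absent. The list without Sparc, which was high in endothelial and mural cell-like cells too, summed to 1173 and 989 CPM over 9 markers in neutrophil-like cells, with 0 and 1 markers at 0, far below the microglia-like sums. Tmem119, a marker specific to microglia, had 4 and 1 UMIs in neutrophil-like cells. P2ry13 UMIs per P2ry12 UMI were 3.79 and 4.02 in neutrophil-like cells against 0.389 and 0.481 for microglia-like cells. In the 82 flox and 126 cKO neutrophil-like cells without a UMI of the 9 markers, P2ry13 was at 360.3 and 567 CPM (31 and 92 UMIs). P2ry12 was at 46.5 and 110.9 CPM in these cells (4 and 18 UMIs), against 78.2 and 129.8 CPM over the class. What part RNA of other cells, or Med12l in the case of P2ry12, has in the neutrophil-like values was not tested.

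P2ry6, the UDP receptor, had similar levels in the 3 macrophage classes. Border-associated macrophage-like cells had 212 and 197 CPM, macrophage-like cells 161 and 157 CPM, and microglia-like cells 151 and 153 CPM. Neutrophil-like cells had 70.0 and 59.0 CPM and dendritic cell-like cells 33.6 and 27.8, while mural, endothelial and oligodendrocyte-like cells had at most 24.0 CPM and overlapped in range. The thinned share of cells with a UMI was 15.1% and 16.1%, 14.8% and 13.8%, and 13.9% and 13.04% in the 3 macrophage classes in that order, with overlapping intervals within each library, and 1.78% and 0.336% in oligodendrocyte-like cells.

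P2ry14, the receptor for UDP-glucose and related sugars, was highest in mural cell-like cells. It had 292 CPM in flox (246 to 344) and 282 CPM in cKO (246 to 322) there, from 142 and 223 UMIs. Mural cells are the pericytes and smooth muscle cells of vessel walls, and 22.8% and 23.3% of these cells had a P2ry14 UMI after thinning. Dendritic cell-like cells came next with 32.8 and 34.0 CPM, then border-associated macrophage-like cells with 10.9 and 9.86. Microglia-like cells had 1.53 and 0.979 CPM, and in oligodendrocyte-like cells 1 UMI was seen in flox and 0 in cKO.

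P2rx4, an ATP-gated channel of the lysosome and surface, showed a shallow gradient over the same classes. It had 124 and 115 CPM in border-associated macrophage-like cells, 105 and 92.5 in macrophage-like cells, 66.4 and 56.3 in dendritic cell-like cells, with microglia-like cells at 61.9 and 60.6. The dendritic and microglia-like ranges overlapped. In the other 4 classes P2rx4 lay between 9.45 and 29.2 CPM.

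P2rx7, the channel that opens at high ATP, stood out in border-associated macrophage-like cells. It had 459 CPM in flox (428 to 492) and 397 CPM in cKO (370.1 to 425) there, from 800 and 805 UMIs, and 34.1% and 29.9% of these cells had a UMI after thinning. Border-associated macrophages live in the meninges, the perivascular spaces and the choroid plexus. Microglia-like cells had 71.2 and 66.2 CPM, macrophage-like cells 47.6 and 43.4 and oligodendrocyte-like cells 53.8 and 29.9, and the ranges of the last 2 classes overlapped. Oligodendrocyte precursor-like cells, a class of only 50 and 38 cells, had 99.3 and 91.9 CPM. Neutrophil-like cells, which had the most P2ry13, had 1 and 2 UMIs of P2rx7, and mural cell-like cells 0 and 5.

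Entpd1 was highest in endothelial cell-like and neutrophil-like cells, whose ranges overlapped. Endothelial cell-like cells had 242 CPM in flox (224 to 261) and 348 CPM in cKO (329.7 to 367), from 679 and 1363 UMIs. Neutrophil-like cells had 247 CPM (188 to 318) and 227 CPM (184 to 277), from 60 and 96 UMIs, and 384 and 271 CPM in those without a microglia marker UMI. On vessel endothelium CD39 removes the ADP that drives platelet aggregation. The 3 macrophage classes lay close together, at 102 and 89.3 CPM in border-associated macrophage-like, 90.3 and 97.5 in macrophage-like and 93.5 and 83.5 in microglia-like cells, and oligodendrocyte-like cells had 4.10 and 4.22.

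Nt5e, which completes the path to adenosine, was scarce in every class compared. It was the only one of the 8 genes that stayed under 50 CPM in each of these classes and both libraries. Neutrophil-like cells had 41.2 and 40.1 CPM from 10 and 17 UMIs, endothelial cell-like cells 17.8 and 21.2 from 50 and 83 UMIs, and macrophage-like cells 4.84 and 4.88 from 150 and 157. In 2149 and 1411 microglia-like cells 6 and 1 UMIs were counted. Smaller classes held more, with 49.7 and 37.7 CPM in fibroblast-like cells (12 and 46 UMIs) and 124 and 35.1 CPM in T or NK cell-like cells (15 and 4 UMIs).

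**Figure D1:**
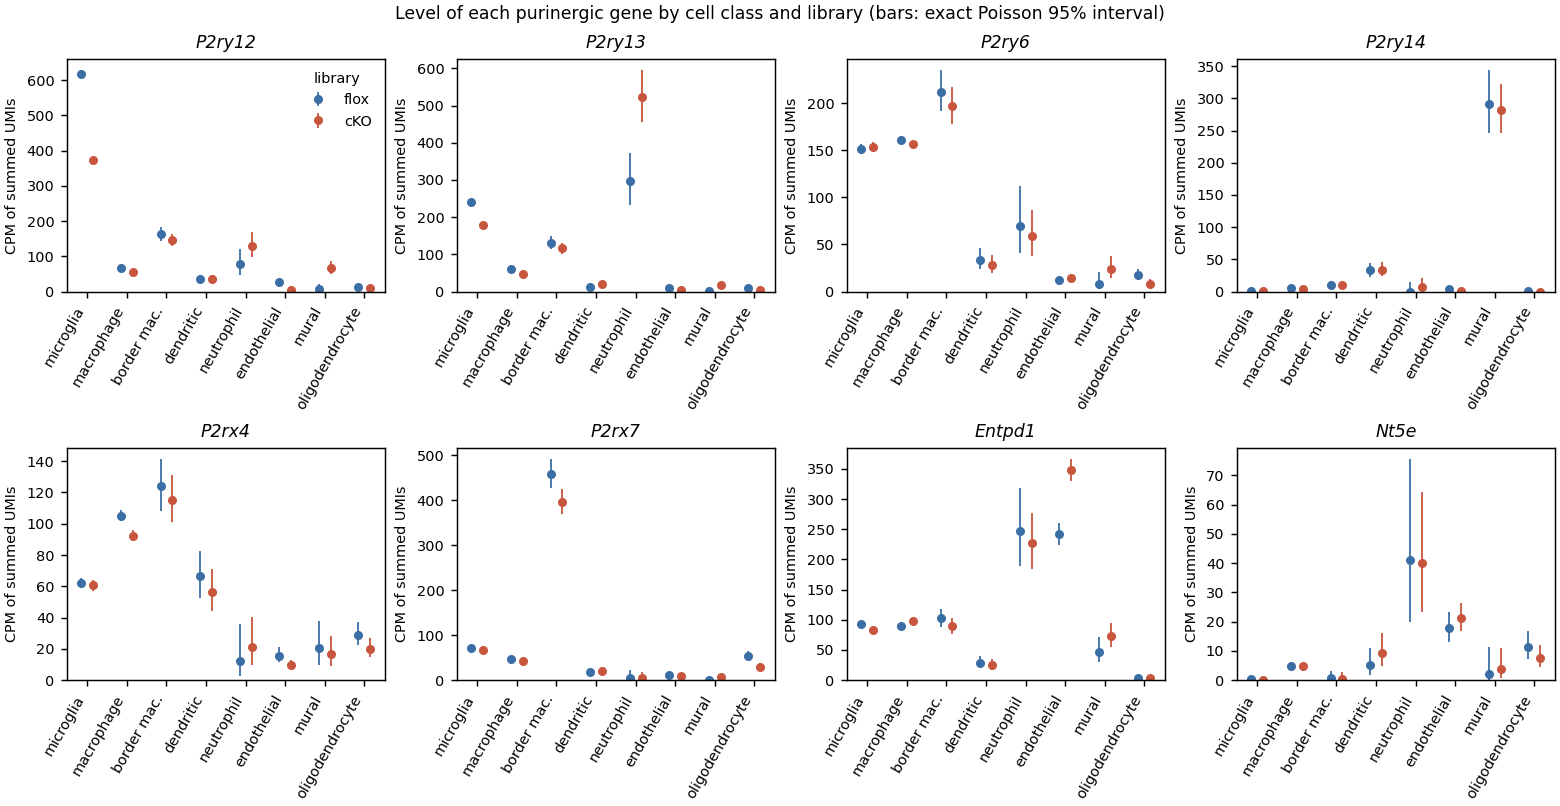
Level of each of the 8 genes in CPM of summed UMIs (vertical axis) in 8 cell classes (horizontal axis, "border mac." for border-associated macrophage-like), with flox in blue, cKO in red and bars for the exact Poisson 95% interval. P2ry12 peaks in microglia-like, P2ry14 in mural and P2rx7 in border-associated macrophage-like cells, in both libraries. P2ry13 is highest in neutrophil-like cells in both libraries, but in flox its bar there spans the microglia-like level.

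Microglia-like and macrophage-like cells were compared gene by gene within each library, which keeps preparation the same on both sides. A gene was called when it was at least 2-fold apart in the same direction in both libraries, with intervals that excluded equal levels and at least 30 UMIs in the higher class of each. P2ry12 and P2ry13 were called higher in microglia-like cells, as were 12.6% of the 11006 genes tested, and P2ry14 and Nt5e were called higher in macrophage-like cells, as were 6.61% of them. The log2 ratio of microglia-like over macrophage-like was 3.22 in flox (3.16 to 3.29) and 2.73 in cKO (2.66 to 2.80) for P2ry12, and 1.98 and 1.96 for P2ry13. It was −1.93 (−2.50 to −1.39) and −2.02 (−2.78 to −1.34) for P2ry14. For Nt5e, with its 6 and 1 microglia-like UMIs, it was −4.17 (−5.63 to −3.01) and −6.64 (−11.95 to −4.14). The other 4 genes were under 2-fold apart, with P2rx4 at −0.76 and −0.61, P2rx7 at 0.58 and 0.61, P2ry6 at −0.09 and −0.03, and Entpd1 at 0.05 and −0.22. The median over all genes tested was 0.12 in flox and 0.08 in cKO, with 5th and 95th percentiles of −1.55 and 2.87 in flox and −1.43 and 2.72 in cKO, and the median of the 8 genes was −0.02 and −0.13. With cells gated 1 by 1 on markers in place of clusters only the P2ry12 and P2ry13 calls were kept, and Nt5e in cKO was then at −4.06.

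**Figure D2:**
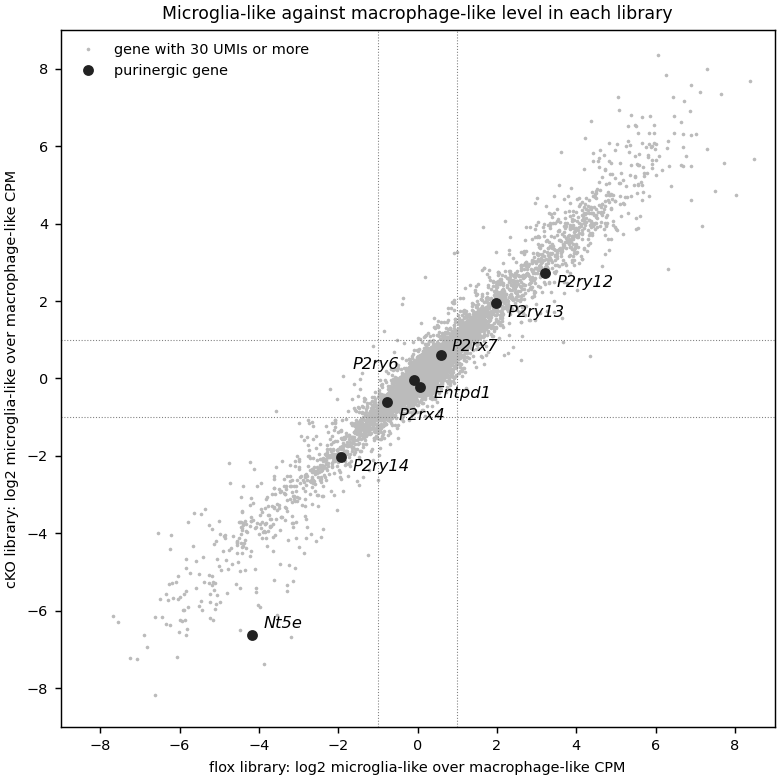
Log2 ratio of microglia-like over macrophage-like CPM in the flox library (horizontal axis) and the cKO library (vertical axis), with genes of at least 30 UMIs as grey points, the 8 purinergic genes in black and dotted lines at 2-fold. P2ry12 (3.22 and 2.73) and P2ry13 (1.98 and 1.96) lie past 2-fold at the upper right, and P2ry14 and Nt5e past it at the lower left.

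Cells with UMIs of several receptors were counted without regard to how often chance would join them. With cells thinned to 2000 UMIs, 51.2% of flox and 39.5% of cKO microglia-like cells had UMIs of at least 2 of P2ry12, P2ry13, P2ry6, P2rx4 and P2rx7. The share was 44.6% and 41.4% in border-associated macrophage-like cells and 17.8% and 14.8% in macrophage-like cells. Oligodendrocyte-like cells, which should lack most of these receptors, had 1.59% and 1.20%. No UMI of these 5 genes was seen in 16.4% and 25.9% of microglia-like cells and in 43.0% and 46.6% of macrophage-like cells.

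Microglia-like cells were not uniform, and P2ry12 differed widely between their 5 clusters. The clusters are named here by a leading gene. The Siglech cluster, which also had Slc2a5 and P2ry12 among its leading genes, had 2255 CPM of P2ry12 in flox (2202 to 2308) and 2043 in cKO (1971 to 2117). The Ifit3 cluster, led by interferon-induced genes, had 920.3 and 598 CPM and the Gpr84 cluster 724 and 566. The Top2a cluster, led by cell cycle genes, had 344 and 253 CPM, and the Mmp12 cluster, led by Mmp12, Cd5l, Lpl and Igf1, had 173 and 142. The order of the 5 clusters was the same in both libraries. P2ry12 was itself among the leading genes of the Siglech cluster, although it was not used for clustering.

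P2ry13, Entpd1 and P2rx7 were also at their highest in the Siglech cluster. P2ry13 was at 535 and 530.5 CPM there and at 139 and 111 in the Mmp12 cluster. Entpd1 was at 277 and 329 CPM in the Siglech cluster and at 57.2 and 53.8 in the Mmp12 cluster, with 49.6 and 51.9 in the Top2a cluster. P2rx7 was at 131 and 134 CPM against 55.9 and 53.6. The log2 ratio of the Siglech over the Mmp12 cluster was 3.71 and 3.85 for P2ry12, 1.94 and 2.25 for P2ry13, 2.27 and 2.61 for Entpd1 and 1.23 and 1.32 for P2rx7, and each of these 4 genes was at least 2-fold apart in each library alone. By the same call rule 4 of the 6 purinergic genes with enough UMIs were higher in the Siglech cluster, beside 7.67% of 9189 genes, and 0 were higher in the Mmp12 cluster, beside 9.09%. These clusters were drawn from the same cells. They were also the highest and the lowest of the 5 for P2ry12, P2ry13 and P2rx7 in both libraries. The counts thus follow in part from the choice of this pair, and are a description. P2ry6 was at 0.06 (−0.09 to 0.21) and 0.04 (−0.16 to 0.24) and lay between 116 and 175 CPM in all 5 clusters. P2rx4 went the other way, at −0.96 (−1.25 to −0.68) and −0.48 (−0.87 to −0.12), with 40.8 and 46.3 CPM in the Siglech cluster and 79.3 and 64.8 in the Mmp12 cluster.

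The depth of cells differed between these clusters. The median was 4109 and 5488 UMIs in the Siglech cluster and 13387 and 17267 in the Mmp12 cluster, so the cells with the highest share of P2ry12 among their UMIs were also the shallowest. At a fixed 1000 UMIs per cell 84.7% and 79.1% of the cells in the Siglech cluster and 17.6% and 14.3% of those in the Mmp12 cluster had a P2ry12 UMI. Nothing here was tested, since clusters of the same cells are no independent groups.

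In the 7 macrophage-like clusters P2ry12 lay between 36.6 and 30.2 CPM in the Fabp4 cluster and 105 and 76.1 CPM in the Slfn4 cluster, which was led by interferon-induced genes, and reached 145 and 63.8 CPM in the cycling Pclaf cluster of 25 and 29 cells. Every macrophage-like cluster except that one in flox was below the Mmp12 cluster by intervals that did not overlap. P2rx4 was highest in the Mgst1 cluster at 129 and 122 CPM, and P2ry6 lay between 109 and 177 CPM throughout.

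**Figure D3:**
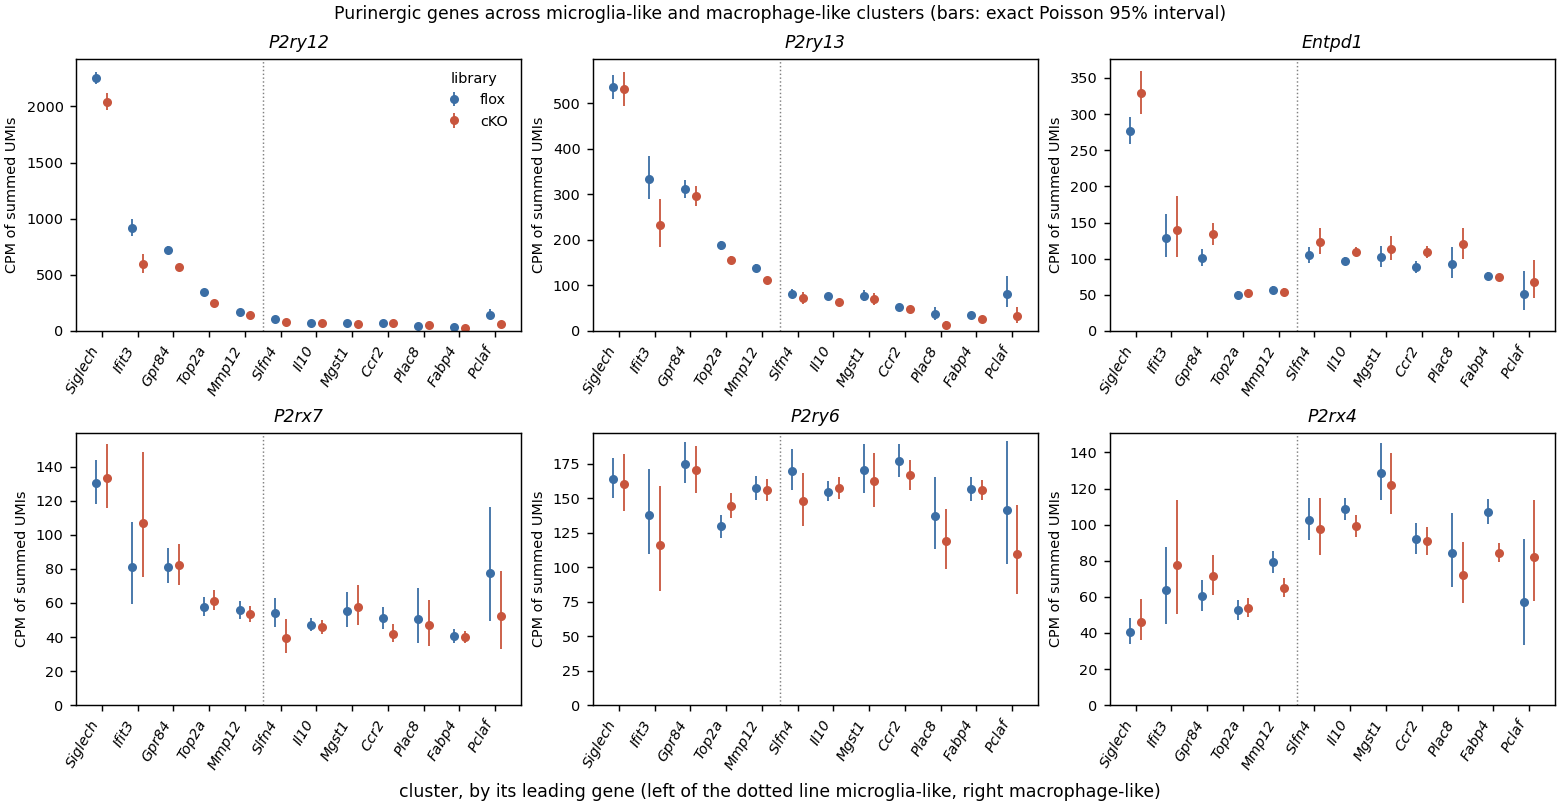
Level in CPM (vertical axis) of 6 of the genes in the 5 microglia-like clusters, left of the dotted line, and the 7 macrophage-like clusters, right of it (horizontal axis, by leading gene), with flox in blue, cKO in red and bars for the exact Poisson 95% interval. P2ry12, P2ry13, Entpd1 and P2rx7 are highest in the Siglech cluster, P2ry6 lies between 116 and 175 CPM in the microglia-like clusters, and P2rx4 is at its microglia-like lowest in the Siglech cluster.

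The library labelled cKO was then set against flox within each class. A gene was called when it was at least 2-fold apart with an interval that excluded equal levels and at least 30 UMIs in the higher library. Of 64 pairs of gene and class 42 had 30 UMIs or more, 12 of them were above 0 on the log2 scale and 3 were called. Over all genes between 5.19% and 8.31% were called per class, and the class medians lay between −0.09 and 0.10. The share of all genes above 0 was not counted, so no direction is read from the 12 pairs. The called pairs were P2ry12 in mural and endothelial cell-like cells and P2ry6 in oligodendrocyte-like cells. No call was made for microglia-like or macrophage-like cells.

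In microglia-like cells, where 6.37% of genes were called, 0 of the 7 genes with enough UMIs were. P2ry12 was at 618 and 374 CPM, a log2 ratio of −0.72 (−0.76 to −0.68), and P2ry13 at 240.1 and 180.1 CPM, at −0.42 (−0.48 to −0.35). Entpd1 was at −0.16 (−0.26 to −0.07), P2rx7 at −0.10, P2rx4 at −0.03 and P2ry6 at 0.02, the last 3 with intervals that included 0. The median of the 7 genes was −0.16 and that of all 10942 genes −0.04. The makeup of the class, given here as shares of cells, also differed between the libraries. The Siglech cluster held 30.9% of flox and 18.0% of cKO microglia-like cells (665 and 254 cells) and the Mmp12 cluster 28.1% and 38.9% (603 and 549). With the same cluster weights in both libraries P2ry12 was at 541 and 448 CPM, a log2 ratio of −0.27, P2ry13 was at −0.18 and Entpd1 was at 0.15. Within clusters P2ry12 was lower in cKO in 5 of 5, from −0.14 in the Siglech cluster to −0.62 in the Ifit3 cluster, and Entpd1 was higher in cKO in 4 of 5, with intervals that excluded 0 in the Siglech cluster (0.25) and the Gpr84 cluster (0.40). These weights came from the summed UMIs of each cluster, not from its cells, and were chosen after the data were seen. The part of the makeup in the P2ry12 value was not tested, and makeup and library cannot be told apart.

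In macrophage-like cells 6.04% of all genes were called and 0 of the 8. P2ry13 was at −0.39 (−0.49 to −0.29), P2ry12 at −0.23 (−0.32 to −0.14), P2rx4 at −0.19 and Entpd1 at 0.11 (0.04 to 0.18). The median of the 8 genes was −0.16, beside 0.01 over all genes. In border-associated macrophage-like cells 5.94% of all genes and 0 of 6 were called, and all 6 lay between −0.21 and −0.10. In dendritic cell-like cells 5.19% of all genes and 0 of 5 were called.

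In neutrophil-like cells P2ry13 was higher in the library labelled cKO without reaching the call. Its log2 ratio was 0.82 (0.43 to 1.22), from 296 and 522 CPM, and 0.65 (0.05 to 1.29) among cells without a microglia marker UMI. Entpd1 was at −0.12 (−0.60 to 0.37). P2ry12 was at 0.73, from 19 and 55 UMIs, and was called in 1 of 12 settings. Of 2402 genes tested in this class 5.95% were called, 0 of 3 purinergic genes among them, and the median over all genes was 0.10, or 0.24 with scaling by the trimmed mean of M-values (TMM).

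In endothelial cell-like cells P2ry12 was called lower in cKO, and its UMIs lay in few cells. P2ry12 was at 26.7 CPM in flox and 4.60 in cKO, from 75 and 18 UMIs, a log2 ratio of −2.54 (−3.37 to −1.78). In this class 7.27% of all genes and 1 of 6 purinergic genes were called. In flox 41 of the 75 UMIs lay in 3 cells, with 17, 13 and 11 each, and in those cells the 9 microglia markers summed to 5807 CPM against 321 in the rest of the class. The other endothelial cell-like cells had 12.3 CPM of P2ry12 in flox, and without its 3 highest cells cKO had 3.37. Entpd1 was higher in cKO, at 0.53 (0.39 to 0.66), and its level differed between clusters. The Tmem252 cluster, with Ackr1 and Vwf of venules, had 279 and 368 CPM of Entpd1 in 291 and 351 cells, while the cluster with Slco1a4, a gene of brain capillaries, had 141 and 131 CPM in 217 and 81 cells. The 9 endothelial markers summed to 16047 and 12318 CPM over the class with none at 0, and Cldn5 among them was at 3281 and 590.2 CPM, so the class itself differed between the libraries. The part of that difference in the Entpd1 value was not tested.

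In mural cell-like cells P2ry12 was called higher in cKO, with most of its UMIs in 3 cells. It was at 8.22 CPM in flox and 67.0 in cKO, from 4 and 53 UMIs, a log2 ratio of 3.03 (1.59 to 4.96), in a class where 8.31% of all genes and 1 of 3 purinergic genes were called. In cKO 48 of the 53 UMIs lay in 3 cells, 42 of them in 1 cell, and those 3 cells had 6632 CPM of the 9 microglia markers against 425 in the rest. Without these 3 cells the cKO level was 6.88 CPM. Over the whole class the 9 markers summed to 394 CPM in flox, with Tmem119 at 0, and 923 CPM in cKO, with none at 0. P2ry14, the receptor that marked this class, was at −0.05 (−0.36 to 0.27). The call for P2ry12 was lost when cells were gated 1 by 1 (0.23) and, separately, when at most 10% mitochondrial UMIs were allowed (1.30).

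In oligodendrocyte-like cells, where 5.62% of all genes and 1 of 4 were called, P2ry6 was at 17.3 and 8.43 CPM. These were 38 and 20 UMIs, a log2 ratio of −1.04 (−1.90 to −0.22), and 13 of the 38 flox UMIs lay in 3 cells with 6477 CPM of microglia markers against 589 in the rest. In cKO 8 of the 20 UMIs lay in 3 cells, with 881 CPM of the markers. Without the 3 highest cells of each library P2ry6 was at 11.6 and 5.18 CPM. The P2ry6 call held in 5 of 11 settings, with log2 ratios from −1.16 to −0.61. P2rx7, which oligodendrocyte-like cells held more of, was at −0.85 (−1.29 to −0.41), from 118 and 71 UMIs. It was lower in cKO in both oligodendrocyte-like clusters, at −0.80 (106 and 65 UMIs) and −1.23 (12 and 6 UMIs).

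**Figure D4:**
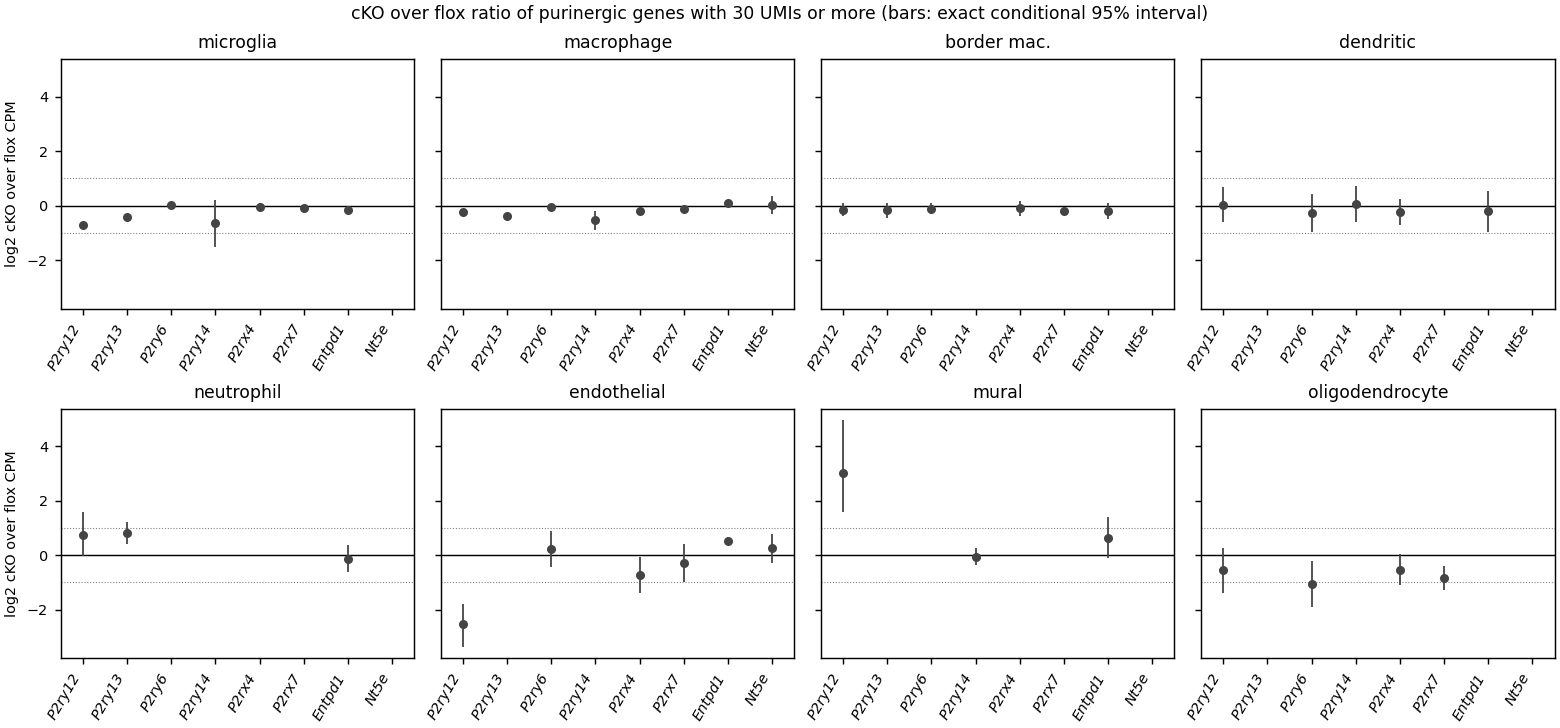
Log2 ratio of cKO over flox CPM (vertical axis) for each purinergic gene with at least 30 UMIs in the higher library (horizontal axis) in 8 cell classes, with bars for the exact conditional 95% interval, a solid line at equal levels and dotted lines at 2-fold. P2ry12 in mural (3.03) and endothelial (−2.54) cell-like cells and P2ry6 in oligodendrocyte-like cells (−1.04) are past 2-fold, and the microglia-like and macrophage-like values lie within it.

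Around the 8 genes, 41 further genes of purinergic signalling were read from a fixed list. Of these, 26 could be tested between microglia-like and macrophage-like cells. Among them 4 were called higher in microglia-like and 5 higher in macrophage-like cells, beside the 12.6% and 6.61% of all genes given above. The microglia-like count is near its background share and the macrophage-like count is above its share. The genes are few and chosen, and the counts were not tested. The adenosine receptors differed between the classes. Adora3 had 56.6 and 46.6 CPM in microglia-like and 3.23 and 3.48 in macrophage-like cells. Adora2b had 1.44 and 1.52 against 26.7 and 33.5, and Adora2a had 0.180 and 0.245 against 3.78 and 1.68. Adora1 was highest in oligodendrocyte-like cells, at 107 and 69.6 CPM.

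Among the other nucleotide receptors P2rx1 was called higher in microglia-like cells (5.08 and 4.21 CPM against 0.839 and 0.436). P2ry1, a further ADP receptor, had 3 and 2 UMIs in microglia-like cells and 10.3 and 8.15 CPM in macrophage-like cells, and P2ry2, the ATP and UTP receptor, had 7.46 and 9.74 CPM against 16.1 and 21.5. P2ry10, a P2Y-like receptor for lysophospholipids, was at 453 and 441 CPM in dendritic cell-like cells and at most 7.08 in any other class compared. P2ry4 had no UMI in any compared class. Med12l, which surrounds the locus on chromosome 3, was called higher in microglia-like cells as well, at 11.3 and 9.98 CPM against 2.81 and 2.18, with 78.2 and 80.3 CPM in neutrophil-like cells.

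The enzymes that handle extracellular nucleotides were divided over cell classes. Entpd3, which like Entpd1 splits ATP and ADP, was at 128 and 283 CPM in neutrophil-like cells and at most 27.8 in the others. Among the classes compared, Enpp2 (autotaxin) was at 869 and 916 CPM in oligodendrocyte-like and 169 and 159 in endothelial cell-like cells. Enpp2 was also a leading gene in a class that was not compared (77 and 162 cells), named choroid plexus epithelial cell-like. Enpp1 was at 69.8 and 73.5 CPM in macrophage-like cells. Alpl, an alkaline phosphatase of capillary endothelium, was at 48.4 and 3.83 CPM in endothelial cell-like cells. For adenosine and its products, the transporter Slc29a1 was called higher in microglia-like than in macrophage-like cells (51.9 and 59.4 CPM against 24.3 and 26.6). Among the classes compared it was highest in border-associated macrophage-like cells (63.7 and 80.9 CPM), as was Pnp (535 and 449 CPM). Dpp4, which can anchor adenosine deaminase, was highest in dendritic cell-like cells (268 and 236), and Adk in oligodendrocyte-like cells (59.8 and 54.8). The lysosomal transporter Slc29a3 had 106 and 79.3 CPM in microglia-like cells.

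Partners and effectors of the receptors were widespread. Gnai2, the G protein subunit through which P2Y12 signals, had 975 and 787 CPM in microglia-like and 2151 and 1776 in endothelial cell-like cells. Kcnk13 (THIK-1), the potassium channel that acts with P2Y12 in microglia, had 72.5 and 79.5 CPM in microglia-like and 67.0 and 74.6 in macrophage-like cells, so its levels there were close, unlike those of P2ry12. Among the classes compared Kcnk13 was highest in oligodendrocyte-like cells, at 97.2 and 83.9 CPM. Downstream of P2X7, Nlrp3 had 2229 and 2167 CPM in microglia-like and 6908 and 8328 in neutrophil-like cells, Pycard 194 and 221 and Casp1 39.9 and 31.3 in microglia-like cells. Il1b was called higher in macrophage-like cells (1589 and 1399 CPM against 336 and 346), and was highest in neutrophil-like cells (10914 and 9810.3), where P2rx7 had 1 and 2 UMIs. Of the release channels, Lrrc8a had 190.5 and 210.1 CPM in endothelial cell-like cells and Panx1 19.1 and 28.7 in macrophage-like cells.

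Between the libraries 124 of 328 pairs of these 41 genes and 8 classes had at least 30 UMIs, and 4 were called higher and 5 lower in cKO. Between 5.19% and 8.31% of all genes were called per class, so this count is near the background and the genes are given as values. Calls over all genes leaned to lower in cKO in 6 of the 8 classes, with 586 lower and 69 higher in macrophage-like cells. Lower were Adora2a (−1.17; 117 and 54 UMIs) and Dpp4 (−1.53; 81 and 29) in macrophage-like cells, Adora1 in microglia-like cells (−1.14; 67 and 28), and P2ry1 (−1.06; 42 and 28) and Alpl (−3.66; 136 and 15) in endothelial cell-like cells. Adora1 had 26 of its 67 flox UMIs and 7 of its 28 cKO UMIs in the Siglech cluster. That cluster held 30.9% of flox and 18.0% of cKO microglia-like cells, but a smaller share of the UMIs, since its cells were the shallowest (medians of 4109 and 5488). The log2 ratio of Adora1 in the Siglech over the Mmp12 cluster was 6.07 in flox (26 and 1 UMIs) and 3.11 in cKO (7 and 5 UMIs). The part of the cluster mix in the Adora1 value was not tested. The cluster with the capillary gene Slco1a4 had 217 flox and 81 cKO cells, and the part of this in the Alpl value was not tested. Higher were Entpd3 in neutrophil-like cells (1.15; 31 and 120 UMIs), Panx1 in border-associated macrophage-like cells (1.51; 13 and 43), and Nlrp3 (1.24; 92 and 352) and Pycard (1.21; 8 and 30) in mural cell-like cells, where the microglia markers were also higher in cKO.

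The genes most like each purinergic gene were read over the 16 units of class and library as Pearson's r of log2(CPM + 1) among 4308 genes. These values describe points that share libraries and cells, and carry no test. P2ry12 was most like Cxcl10 (0.95) and Ccl4 (0.94), and P2ry13 most like Ptgs1 (0.96), Tnf (0.95) and Cd37 (0.95). P2ry6 was most like Rnpep (0.97), Cd84 (0.97) and Fcgr3 (0.96), P2rx4 most like Npc2 (0.96), Plekhb2 (0.94) and Snx5 (0.94), and P2rx7 most like Prune2 (0.89), Sft2d1 (0.88) and Necap2 (0.88). Entpd1 was most like Ralb (0.96), Ier3 (0.94) and Fli1 (0.92), P2ry14 most like Nab1 (0.90), Plce1 (0.86) and Crip1 (0.85), and Nt5e most like Ppp2r5a (0.94), Syf2 (0.92) and Rybp (0.91). Among the 8 genes themselves r was 0.88 for P2ry12 and P2ry13, 0.84 for P2ry12 and P2ry6, 0.83 for P2ry13 and P2ry6, and 0.76 for P2rx4 with P2rx7 and with P2ry6. P2ry14 was unlike its neighbours on chromosome 3, at −0.08 with P2ry12 and −0.25 with P2ry13.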

How the data were processed

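Single-cell libraries from infarcted mouse brain, 1 flox and 1 Hilpda cKO, were read as whole-number UMI counts per gene and cell. The deposited counts were made with CASAVA 1.8, STARsolo and Seurat on mm10, per the submitters' processing notes; settings and annotation are not recorded in the labels. No barcode had under 500 UMIs as deposited. The purinergic genes, pathway list and marker lists were chosen with earlier results of these data known.

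Cells with at least 500 UMIs, 200 genes and at most 25% mitochondrial UMIs were kept, and Scrublet (in scanpy 1.11.5, expected rate 6%) marked 2.54% of flox and 1.99% of cKO cells as doublets, which were removed. Counts scaled to 10000 were reduced to 2000 variable genes and 30 components, with 20 neighbours, and clustered at resolution 1 (leidenalg 0.10.2). The purinergic genes, their pathway list, Hilpda, mitochondrial, ribosomal, haemoglobin and Y chromosome genes, Xist and Tsix were left out. Thresholds for naming clusters were set after the clusters were seen, and at least 3 markers had to be detected. UMIs were summed per class and library in Python 3.11.15 with numpy 2.4.6, scipy 1.17.1 and pandas 2.3.3. Levels carry exact Poisson intervals, shares Clopper-Pearson intervals after thinning to 1000 UMIs, and ratios exact conditional intervals, all at 95% and for counting error only. TMM factors came from edgeR 4.0.16, used for scaling alone. The scripts were tested on simulated data. Named were all 8 genes, pathway genes with a call or at least 50 CPM, and the 3 genes most correlated with each of the 8 among those with at least 100 CPM in 1 unit, of which 1 is not reported here. P2ry4 and the unnamed clusters were named outside this rule, after their values were seen. Alternatives were gating cells 1 by 1, stricter filters, doublets kept, resolution 2, means over cells, TMM, a correction for GC of the last 500 bases, other UMI minimums and thinning depths, and, added after the data were seen, equal cluster weights, leaving out the Siglech cluster, calls in each library alone, and neutrophil-like cells without microglia marker UMIs.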

Additional observations from a re-analysis of the deposited data

Results flagged for a closer look

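P2ry12 was called in opposite directions in the cell classes of the vessel wall. The log2 ratio of cKO over flox was 3.03 (1.59 to 4.96) in mural cell-like cells, from 4 and 53 UMIs, and −2.54 (−3.37 to −1.78) in endothelial cell-like cells, from 75 and 18 UMIs. The difference between the classes was not tested. In mural cell-like cells of cKO 3 cells held 48 of the UMIs, and in endothelial cell-like cells of flox 3 cells held 41. Those cells had 6632 and 5807 CPM of the 9 microglia markers, against 425 and 321 in the rest of their classes. Without the 3 highest cells of each library P2ry12 was at 2.10 CPM in flox and 6.88 in cKO in mural cell-like cells, and at 12.3 and 3.37 in endothelial cell-like cells.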

How the results depend on the processing

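No paired analysis was possible because each group is 1 library. The highest class of each of the 8 genes was the same under the 6 alternatives for levels. The class with the highest share of cells was that with the highest level for 8 genes at 1000 UMIs, 7 at 2000 UMIs and 4 without thinning. Between microglia-like and macrophage-like cells 4 genes were called, and 2 with cells gated 1 by 1, where P2ry14 and Nt5e missed the call. Between the libraries 3 pairs of gene and class were called, and 7 with a minimum of 10 UMIs and 7 with no minimum. Of 563 values of single genes under alternatives 493 stayed within the counting interval, 70 moved outside it and 0 called values changed sign. The P2ry12 call in endothelial cell-like cells held in 11 of 11 settings (−2.77 to −1.37), that in mural cell-like cells in 9 of 11 (0.23 to 3.09), and the P2ry6 call in oligodendrocyte-like cells in 5 of 11 (−1.16 to −0.61). Entpd1 in microglia-like over macrophage-like cells of flox ranged from −0.50 to 0.62. TMM moved the share of higher genes among those called from 11.1% to 22.7% in dendritic cell-like and from 51.0% to 68.8% in neutrophil-like cells. With the GC correction the neutrophil-like share was 38.6%. TMM moved the median over all genes from −0.09 to 0.05 in endothelial cell-like, from −0.03 to 0.08 in dendritic cell-like and from 0.10 to 0.24 in neutrophil-like cells. Counts of all genes called between the libraries grew with a lower minimum, from 632 to 1001 (10 UMIs) and 1081 (no minimum) in endothelial cell-like, 470 to 781 and 852 in oligodendrocyte-like, 280 to 575 and 626 in dendritic cell-like, 143 to 376 and 461 in neutrophil-like, 406 to 688 and 733 in border-associated macrophage-like and 361 to 783 and 932 in mural cell-like cells. Gating cells 1 by 1 left 101 genes in dendritic cell-like cells. Depth limited Nt5e and most values in neutrophil-like and mural cell-like cells.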

Other observations

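Purinergic genes were also seen in cells that no comparison used. A cluster of 31 flox and 19 cKO cells led by Igkc, Cd79a, Ccr9 and Ly6d stayed unnamed, and P2ry14 was at 131 CPM in flox (8 UMIs) and 331 CPM in cKO (19 UMIs) there. Within dendritic cell-like cells P2ry14 had 0 UMIs in both libraries in the Ccr7 cluster of 40 and 44 cells, so all of its 39 and 44 UMIs lay in the other dendritic cell-like cluster. Another unnamed cluster, of 168 and 149 cells of low depth, had 516 and 354 CPM of P2ry12 (106 and 60 UMIs) and 112 and 100.4 CPM of P2rx7 (23 and 17 UMIs). Its marker score was highest for microglia. The cluster stayed unnamed because of its low depth and because no microglia marker was among its top 10 genes.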
